A study of Homo sapiens with 16 samples.

Results

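The genes described here are *TP63* and *TP73*, the paralogs of the gene for p53, and *MDM2*, *MDM4* and *PPM1D*, which encode proteins that hold p53 in check. They were taken by symbol and make up 5 of the 25369 genes in the count table. Reads per gene were counted in TPC1 and K1, established human papillary thyroid carcinoma lines that express wild type p53, grown in RPMI and in DMEM, respectively. Both lines were treated for 24 h with 0.2% DMSO as vehicle, with 10 µM nutlin-3a (nutlin), with 25 µM GSK2830371 or with both drugs (combination). Each of these groups holds 2 libraries of stranded polyadenylated RNA, which makes 16 in all, and per the study's reporting summary replicates were prepared independently. The drugs address 2 of the repressors directly, since nutlin occupies the pocket of MDM2 that binds p53 and GSK2830371 is an allosteric inhibitor of the phosphatase PPM1D.

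As background, MDM2 is a ubiquitin ligase that covers the transactivation domain of p53 and marks the protein for degradation by the proteasome. MDM4 is a related protein that binds the same domain and joins MDM2 in a heterodimer, but has little ligase activity of its own, while PPM1D (WIP1) removes phosphates from p53 and from the damage kinases upstream of it. p53 binds and activates the genes of MDM2 and PPM1D, so that active p53 raises its own inhibitors, and *TP73* is a known p53 target through its internal promoter. p63 and p73 recognise much the same DNA sequence as p53, and p63 is best known as a regulator of the basal layer of stratified epithelia.

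Library totals ran from 30789887 to 76648552 counts in TPC1 and from 28888686 to 37161241 in K1. Levels are given as CPM, counts scaled to library size with TMM factors, and comparisons between genes as CPM per kb of exon. TPC1 libraries carry the column numbers 1 and 3. Among thyroid markers *PAX8* stayed at or above 292 CPM and *FOXE1* at or above 22.1 CPM in every library, whereas the TSH receptor gene *TSHR* had no count. The epithelial keratin gene *KRT8* was at 302 CPM or more and the mesenchymal *VIM* (vimentin) at 1880 CPM or more, but E-cadherin (*CDH1*) did not exceed 0.0691 CPM, so some defining thyroid and epithelial markers were absent. Of the blood markers *CD3E* and *HBB* had no count, and *PTPRC* did not exceed 0.062 CPM. Of the 5 genes, 4 passed the filter (above 0.1 CPM in at least 2 libraries) in each line, the exception being *TP63*. Each line was fitted in edgeR by quasi-likelihood, with a Benjamini-Hochberg adjustment over its 15273 (TPC1) or 15900 (K1) tested genes. Called means that the adjusted p was under 0.05 and the change exceeded 1.5-fold. Differences are log2 values with their SE.

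Start sites of all 5 genes are listed by RefSeq, and these windows (GRCh38.p14 table, 250 bases before to 50 after each start) were located in GRCh37 by exact match. They were searched for the p53 site, 2 abutting half-sites of 20 bases in all whose consensus reads the same on both strands, allowing 3 mismatches. Of 35116 RefSeq windows, 5.2% hold such a match and 0.649% one with at most 2 mismatches. Only *MDM2* and *TP73* gave matches among the 5 genes, both at internal starts. The stretch before an internal *MDM2* start is GRCh37 chr12:69202647-69202796 (+ strand, intron 1 of the canonical transcript, with 15 bases exonic in other *MDM2* transcripts). It holds 2 matches. They lie 94 and 56 bases before the start and have 2 and 3 mismatches. The stretch before an internal *TP73* start (GRCh37 chr1:3607086-3607235, + strand, intron 3) holds 1 match with 2 mismatches, 76 bases before the start. Both stretches are shown because these 2 genes had the largest nutlin responses of the 5, with the matches in capitals.
*MDM2* internal promoter: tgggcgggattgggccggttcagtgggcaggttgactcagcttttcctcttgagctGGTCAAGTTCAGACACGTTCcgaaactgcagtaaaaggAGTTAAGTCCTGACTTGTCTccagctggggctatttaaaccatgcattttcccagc
*TP73* internal promoter: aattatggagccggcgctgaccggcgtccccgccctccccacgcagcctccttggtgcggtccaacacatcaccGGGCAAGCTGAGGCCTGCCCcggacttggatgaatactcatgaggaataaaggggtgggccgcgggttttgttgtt
A match describes the letters and was not tested for binding. The windows of *TP63*, *MDM4* and *PPM1D* and those at the outer starts of *MDM2* and *TP73* held no match within 3 mismatches. Neither did the window of a further internal *TP73* start (GRCh37 chr1:3614360-3614659). Absence of a match says nothing about sites elsewhere. Read counts per gene do not separate transcripts from the outer and the internal starts.

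*TP63* (chromosome 3, 189349178 to 189615065), which encodes p63, was hardly detected. It had 0 counts in all 8 TPC1 libraries. In K1 it had 1 count in DMSO replicate 2, nutlin replicate 1, GSK2830371 replicate 2 and combination replicate 1, and 0 in the others. These values lie under the level that a count of 0 allows, 3 counts, which corresponds to between 0.0379 and 0.104 CPM depending on the library. No change of *TP63* with any treatment was detectable at this depth, and no fold change was computed. Such limits cover counting error only. The keratin genes *KRT5* and *KRT14*, which mark basal epithelium where p63 is active, did not exceed 0.0999 and 0.0302 CPM in any library. Other genes of the same basal list were expressed, among them *KRT15* (21.7 to 45.5 CPM in TPC1, 5.32 to 8.64 in K1), *COL17A1* (23.6 to 46.8 and 5.86 to 14.8 CPM) and *ITGA6* (94.2 to 141 and 35.9 to 43.2 CPM).

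*TP73* (chromosome 1, 3569080 to 3652765) encodes the p53 paralog p73. Counts per gene do not separate its transcripts from the outer and the internal starts, so the form of p73 is not known. *TP73* was the member with the lowest level apart from *TP63* in DMSO, and the one with the largest change in K1. In TPC1, DMSO libraries had 8 and 11 counts (0.215 and 0.152 CPM), nutlin libraries 41 and 56 (1.35 and 0.878 CPM), GSK2830371 libraries 1 and 5 (0.0303 and 0.0631 CPM) and combination libraries 88 and 86 (2.41 and 1.43 CPM). In K1, DMSO libraries had 5 and 10 counts (0.143 and 0.269 CPM), nutlin libraries 319 and 386 (11 and 12 CPM), GSK2830371 libraries 13 and 14 (0.414 and 0.466 CPM) and combination libraries 600 and 681 (18.6 and 20.6 CPM). In both lines every library with nutlin lay above every library without it, and within each line the 4 groups did not overlap. The share of all genes whose groups separate in this way was not counted, and GSK2830371 against DMSO was called in neither line. DMSO levels of the lines overlapped, while nutlin levels of K1 lay far above those of TPC1.

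*MDM2* (chromosome 12, 69201957 to 69239324) had the highest level of the 5 per kb of exon in every library. In TPC1 it stood at 141 and 123 CPM in DMSO, 4100 and 4100 CPM in nutlin, 149 and 151 CPM in GSK2830371, and 4800 and 4900 CPM in the combination. K1 libraries gave 155 and 157 CPM in DMSO, 1260 and 1310 CPM in nutlin, 190 and 210 CPM in GSK2830371, and 1890 and 2100 CPM in the combination. The order DMSO, GSK2830371, nutlin, combination held in both lines without overlap between libraries. The share of all genes with such separation was not counted, and GSK2830371 against DMSO was called in neither line. Its canonical transcript shares 5.9% of its exon bases with a processed pseudogene on the same strand that is not a row of the table, so a small part of its reads could be of uncertain origin.

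*MDM4* (chromosome 1, 204485507 to 204527248) varied least with treatment within each line. TPC1 libraries held 54.4 and 41.7 CPM in DMSO, 50.8 and 47.6 CPM in nutlin, 58.8 and 55.4 CPM in GSK2830371, and 83.9 and 74.6 CPM in the combination. In K1 they held 31.6 and 29.5 CPM in DMSO, 32.9 and 33.5 CPM in nutlin, 26.4 and 29.5 CPM in GSK2830371, and 31.9 and 35.9 CPM in the combination. The TPC1 combination libraries were the highest of all 16, nutlin lay within the range of DMSO in TPC1, and the K1 groups lay close together, with nutlin within the range of the combination. Every TPC1 library was above every K1 library. How many genes separate the lines in this way was not counted, and 46.2% of all genes were called between the untreated lines.

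*PPM1D* (chromosome 17, 58677554 to 58743641), whose product is the target of GSK2830371, was at 15.1 and 16.7 CPM in DMSO, 58.2 and 60.4 CPM in nutlin, 9.07 and 9.93 CPM in GSK2830371, and 47.3 and 50.3 CPM in the combination in TPC1. In K1 it was at 21 and 22.6 CPM in DMSO, 50.7 and 58.2 CPM in nutlin, 18.3 and 18.6 CPM in GSK2830371, and 40.4 and 46.4 CPM in the combination. The order GSK2830371, DMSO, combination, nutlin was the same in both lines and no groups of a line overlapped. That order differs from that of *MDM2* and *TP73*, which peaked in the combination. The share of all genes with such separation was not counted. For *PPM1D* the combination against nutlin was called in neither line, and GSK2830371 against DMSO was not called in K1.

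**Figure D1:**
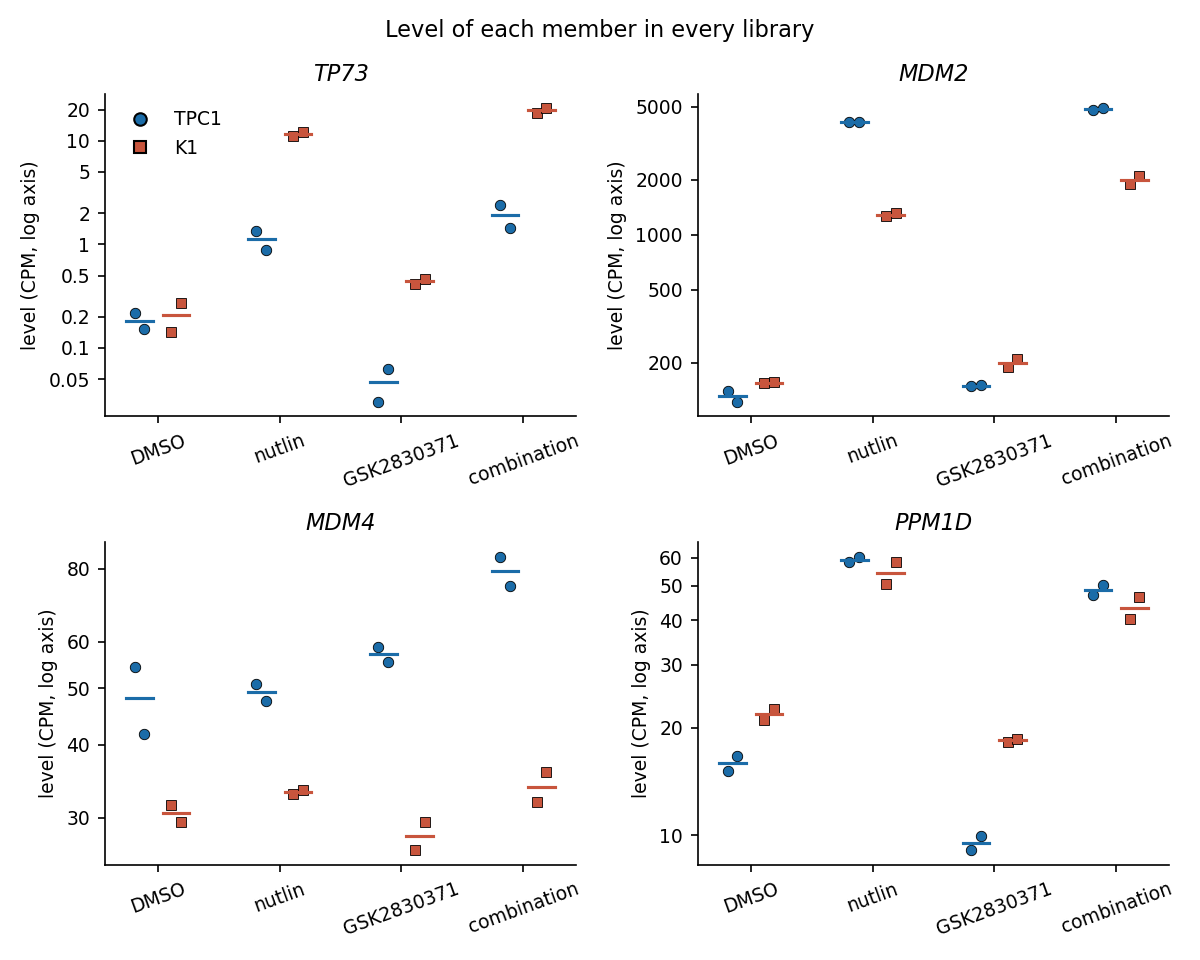
CPM (log axis, a separate scale in each panel) of *TP73*, *MDM2*, *MDM4* and *PPM1D* in each of the 16 libraries by treatment, with circles for TPC1, squares for K1 and short lines for the mean of 2 libraries. *TP73*, *MDM2* and *PPM1D* separate libraries with nutlin from those without it in both lines, *MDM4* does not, and *TP63* is left out because it has at most 1 count per library.

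Nutlin alone raised *TP73*, *MDM2* and *PPM1D* in both lines and left *MDM4* uncalled. The 3 increases compare with 35.5% of all genes tested called in TPC1 in either direction and 9.27% in K1. *MDM2* rose by 4.96 ± 0.106 in TPC1 (31.1-fold, adjusted p = 6.8e-09, edgeR) and by 3.05 ± 0.0682 in K1 (8.26-fold, adjusted p = 4.7e-12, edgeR). *TP73* rose by 2.61 ± 0.451 in TPC1 (6.09-fold, adjusted p = 0.00096, edgeR) and by 5.77 ± 0.205 in K1 (54.5-fold, adjusted p = 3.1e-10, edgeR). By size of increase *TP73* was thus 8th of 15900 genes in K1 and 414th of 15273 in TPC1, while *MDM2* was 70th and 122nd. *PPM1D* rose by 1.90 ± 0.0858 in TPC1 (3.74-fold, adjusted p = 1.8e-07, edgeR) and by 1.32 ± 0.0865 in K1 (2.5-fold, adjusted p = 7.8e-08, edgeR). For *MDM4* the 95% intervals were −0.25 to 0.33 in TPC1 and −0.05 to 0.3 in K1, so in both lines a 1.5-fold change lies outside them.

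The nutlin responses differed in size between the lines in opposite ways. In the fit of all 16 libraries, where 19.2% of 16738 genes were called for this difference, *TP73* rose more in K1 by 3.16 ± 0.635 (adjusted p = 0.0011, edgeR). *MDM2* rose less in K1, by a difference of −1.95 ± 0.116 (adjusted p = 4e-09, edgeR), and so did *PPM1D*, by −0.61 ± 0.136 (adjusted p = 0.0025, edgeR). The *PPM1D* difference lies close to the 1.5-fold limit and fell under it without any one of TPC1 DMSO replicate 1 (−0.52), K1 DMSO replicate 2 (−0.56) and K1 nutlin replicate 1 (−0.52), and with scaling by library size alone (−0.56). *MDM4* gave 0.05 ± 0.15 (95% interval −0.27 to 0.37). Line, medium and any difference in how the lines were processed cannot be told apart here.

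GSK2830371 alone changed 1 of the 4 tested members in TPC1, where 1.4% of all genes were called, and 0 in K1, where 2.23% were. *PPM1D*, the gene of the inhibited phosphatase, fell by 0.74 on the log2 scale in TPC1 (SE 0.0885, 0.599 of the DMSO level, adjusted p = 0.0055, edgeR). With either GSK2830371 library left out, its adjusted p rose to 0.078 (without replicate 1) or 0.067 (without replicate 3), the difference staying between −0.68 and −0.81. In K1 *PPM1D* differed by −0.24 ± 0.0926 (adjusted p = 0.091, edgeR). *MDM2* differed by 0.36 ± 0.0645 in K1, past the p threshold (adjusted p = 0.0022, edgeR) but under 1.5-fold, and by 0.18 ± 0.0901 in TPC1 (adjusted p = 0.29, edgeR). In K1, 3 of the 4 members had an unadjusted p under 0.05, and DESeq2 called 0 there as well.

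*TP73* moved in opposite directions with GSK2830371 in the 2 lines without passing the test in either. In TPC1 the group sum went from 19 counts to 6, a difference of −1.69 ± 0.718 (adjusted p = 0.22, edgeR). The exact Poisson intervals, 0.104 to 0.271 CPM in DMSO and 0.0196 to 0.116 CPM in GSK2830371, overlap slightly. In K1 the sum went from 15 to 27 counts, a difference of 1.07 ± 0.405 (adjusted p = 0.087, edgeR). The difference between the lines, 2.73 ± 0.866, had an adjusted p of 0.084 in edgeR, and none of the members was called for the GSK2830371 effect between lines (2.18% of all genes were), although 3 had an unadjusted p under 0.05. With the replicate number as a block in each line, the *TP73* difference was 2.69 with an adjusted p of 0.014 (edgeR), and DESeq2 gave 2.82 with an adjusted p of 0.019. Leaving out either TPC1 combination library also brought the adjusted p to 0.041. These values rest on between 1 and 14 counts per library.

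Under the combination against DMSO, all 4 tested members were upregulated in TPC1 (44.2% of all genes were called) and 3 in K1 (15.7% were called). *MDM2* rose by 5.21 ± 0.107 in TPC1 (36.9-fold, adjusted p = 2.6e-09, edgeR) and by 3.68 ± 0.07 in K1 (12.8-fold, adjusted p = 8.3e-13, edgeR). *TP73* rose by 3.42 ± 0.429 in TPC1 (10.7-fold, adjusted p = 9.7e-05, edgeR) and by 6.53 ± 0.191 in K1 (92.6-fold, adjusted p = 2.8e-11, edgeR), 6th of all K1 genes. *PPM1D* rose by 1.63 ± 0.0854 in TPC1 (adjusted p = 3.1e-07, edgeR) and by 0.99 ± 0.0869 in K1 (adjusted p = 7.2e-07, edgeR). *MDM4*, the structural partner of MDM2, rose by 0.73 ± 0.128 in TPC1 (1.66-fold, adjusted p = 8e-04, edgeR), or by 0.57, just under 1.5-fold, without DMSO replicate 3. Its K1 difference was 0.15 ± 0.0788 (adjusted p = 0.14, edgeR). These comparisons share the DMSO libraries with the comparisons of the single drugs.

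Relative to GSK2830371 alone, the combination raised *TP73*, *MDM2* and *PPM1D* in both lines (38.5% of all genes called in TPC1, 13.1% in K1). In TPC1 *TP73* was higher by 5.10 ± 0.522, *MDM2* by 5.02 ± 0.106 and *PPM1D* by 2.37 ± 0.0889, with adjusted p of 3.1e-05, 4.2e-09 and 4.5e-08 in edgeR. The K1 values were 5.47 ± 0.174, 3.32 ± 0.0689 and 1.23 ± 0.0895, with adjusted p of 9e-11, 4.8e-12 and 1.8e-07 in edgeR. *MDM4* was higher by 0.48 ± 0.127 in TPC1 (adjusted p = 0.0093, edgeR) and by 0.28 ± 0.0801 in K1 (adjusted p = 0.013, edgeR), under 1.5-fold in both.

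**Figure D2:**
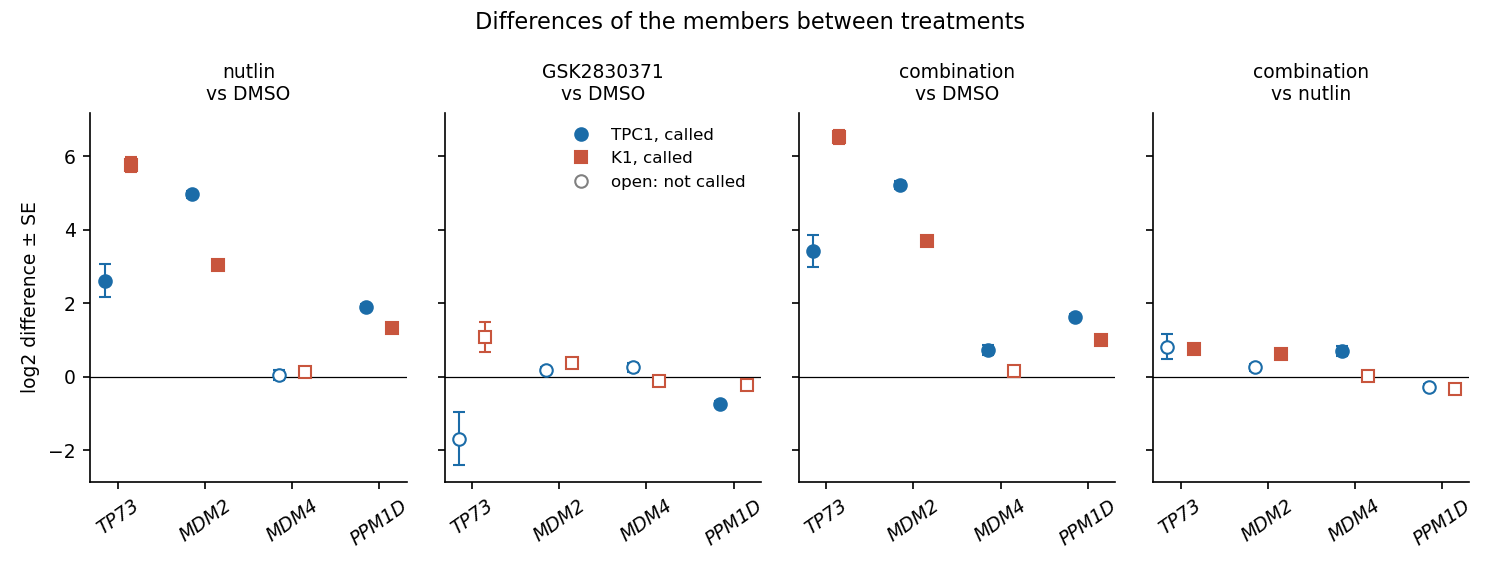
Log2 differences (y axis, with SE as bars, some smaller than the symbol) of the 4 tested members in 4 comparisons, with circles for TPC1, squares for K1, filled where the gene was called and open where it was not. *MDM4* is filled only in the TPC1 combination panels, and *PPM1D* is the only member below 0 in both lines for the combination against nutlin.

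The combination against nutlin compares both drugs given together for 24 h with nutlin alone. In TPC1, 1 member was called (12.1% of all genes were): *MDM4* rose by 0.70 ± 0.128 (1.62-fold, adjusted p = 0.0046, edgeR). In K1, 2 were called (2.68% of all genes were), *TP73* with 0.76 ± 0.103 (1.7-fold, adjusted p = 0.00049, edgeR) and *MDM2* with 0.63 ± 0.0628 (1.55-fold, adjusted p = 6.7e-05, edgeR). The *MDM2* increase in K1 was 0.55, under 1.5-fold, without combination replicate 2. In TPC1 *TP73* gave a difference of similar size, 0.81 ± 0.343, with a larger error (adjusted p = 0.12, edgeR). With the replicate number as a block in TPC1 that difference was 0.77 with an adjusted p of 0.021 (edgeR), which made 2 members called. *MDM2* gave 0.25 ± 0.0893 in TPC1 (adjusted p = 0.074, edgeR).

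*PPM1D* was the only member lower in the combination than in nutlin. The difference was −0.28 ± 0.0817 in TPC1 (95% interval −0.46 to −0.09, adjusted p = 0.035, edgeR) and −0.33 ± 0.0828 in K1 (95% interval −0.51 to −0.15, adjusted p = 0.019, edgeR). Both passed the p threshold but not 1.5-fold, and in both lines the nutlin libraries lay above the combination libraries. Set against each other, the K1 difference minus that of TPC1 was −0.05 ± 0.132 (95% interval −0.33 to 0.23).

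Tested between the lines, where 5.11% of all genes were called, the addition of GSK2830371 to nutlin differed for *MDM4*, by −0.66 ± 0.15 in K1 relative to TPC1 (adjusted p = 0.012, edgeR). That call was lost without TPC1 nutlin replicate 3 (−0.61, adjusted p = 0.058, edgeR), without TPC1 combination replicate 1 (−0.57, under 1.5-fold) or without K1 combination replicate 1 (−0.59, adjusted p = 0.062, edgeR). *MDM2* gave 0.39 ± 0.115, past the p threshold but under 1.5-fold (adjusted p = 0.042, edgeR), and *TP73* gave −0.04 ± 0.299 (95% interval −0.68 to 0.59). In DMSO alone *MDM4* was also lower in K1, by 0.66 (SE 0.106, adjusted p = 3.6e-05, edgeR), the only member called between untreated lines (46.2% of all genes were), and by 0.49 without TPC1 DMSO replicate 1. Untreated *PPM1D* was higher in K1 by 0.44 ± 0.099 and *MDM2* by 0.23 ± 0.0821, both under 1.5-fold, while *TP73* gave 0.23 ± 0.569.

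The interaction term asks whether the combination departs from the sum of both single drug effects on the log2 scale, and 0 members were called for it in edgeR (6.32% of all genes were in TPC1, 2.44% in K1). At an unadjusted p under 0.05 there were 3 members in TPC1 and 1 in K1. In TPC1 *PPM1D* gave 0.46 ± 0.12 (adjusted p = 0.048, edgeR), under 1.5-fold. *TP73* gave 2.50 ± 0.793 (adjusted p = 0.088, edgeR), and with the replicate number as a block 2.4 with an adjusted p of 0.017 (edgeR), which made 1 member called. DESeq2 called it as well, at 2.59 with an adjusted p of 0.049, and called 0 members in K1. The term includes the GSK2830371 libraries with 1 and 5 *TP73* counts. *MDM4* gave 0.45 ± 0.181 (adjusted p = 0.16, edgeR), and without DMSO replicate 3 it was the member called, at 0.62 with an adjusted p of 0.046 (edgeR). In K1 *MDM2* gave 0.27 ± 0.0898 (adjusted p = 0.079, edgeR) and *TP73* −0.3 ± 0.411.

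Set against each other per kb of exon, *MDM2* exceeded *MDM4* in every library, and the ratio of these partners changed with nutlin. The ratio was 3.48 and 3.96 in TPC1 DMSO, 108 and 116 in nutlin, 3.4 and 3.66 in GSK2830371, and 76.7 and 88.1 in the combination. For K1 it was 6.6 and 7.13 in DMSO, 51.3 and 52.6 in nutlin, 9.67 and 9.53 in GSK2830371, and 79.4 and 78.6 in the combination. The lines were thus apart under nutlin and overlapped in the combination, TPC1 having come down from its nutlin value and K1 having gone up. *PPM1D* lay below *MDM4* per kb in the TPC1 libraries without nutlin (ratios of 0.325 to 0.842) and above it in those with nutlin (1.19 to 2.68), whereas in K1 it lay above *MDM4* throughout (1.33 to 3.66). *MDM2* made up 67% to 97.5% of the counts of the 5 genes, which together took between 0.0181% and 0.488% of a library. Exon lengths are those of the canonical transcripts, and use of shorter transcripts was not measured.

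**Figure D3:**
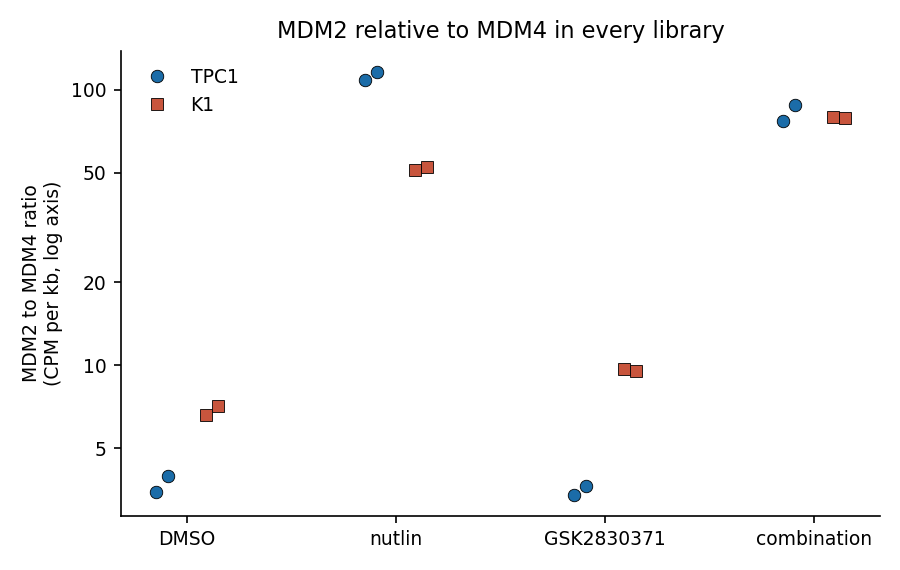
Ratio of *MDM2* to *MDM4* in CPM per kb of exon (log axis) in each library by treatment, with circles for TPC1 and squares for K1. Under nutlin TPC1 libraries (108 and 116) lie above those of K1 (51.3 and 52.6), and in the combination the lines overlap between 76.7 and 88.1.

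Genes with the most similar pattern were ranked by Pearson correlation of log2 CPM over the 16 libraries, each line centred on its mean, among 12797 genes with at least 1 CPM on average. The libraries share treatments, so these correlations describe shared treatment patterns. The ranking depends on the measure. By Spearman correlation the first gene named for each member had rank 2 for *TP73*, 53 for *MDM2*, 4 for *MDM4* and 22 for *PPM1D*. *TP73* was most like *FLG-AS1* (0.985), *PRDM1* (0.983), which encodes a transcriptional repressor acting in lymphocyte differentiation, and *RGL1* (0.979), and least like *PAQR8* (−0.969). In K1 *PRDM1* had 1.63 ± 0.248 CPM in DMSO and 7.37 ± 0.716 CPM in nutlin (SD, n = 2), in TPC1 1.56 ± 0.113 and 2.83 ± 0.0554 CPM, so that, as for *TP73*, the K1 rise was the larger. *MDM2* was most like *SESN1*, which encodes a stress-induced inhibitor of mTORC1 signaling, *CYFIP2* and *SRGAP3* (0.997 each), and least like *FAM111B* (−0.997). *SESN1* had 9.75 ± 0.412 CPM in DMSO and 126 ± 7.74 CPM in nutlin in TPC1, against 11.1 ± 0.468 and 47.8 ± 1.84 CPM in K1 (SD, n = 2).

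*PPM1D* was most like *TRIP6* (0.985), *MYH16* (0.98) and *C12orf5* (0.97), the gene for the fructose bisphosphatase TIGAR, and least like *SNTB1* (−0.982). *TRIP6* showed the same order of treatments as *PPM1D* in TPC1, with 70 ± 0.549 CPM in GSK2830371, 78.5 ± 2.2 in DMSO, 126 ± 0.351 in the combination and 146 ± 5.76 in nutlin (SD, n = 2). In K1 its DMSO and GSK2830371 groups stood in the reverse order, at 97.5 ± 2.58 and 101 ± 2.44 CPM, followed by the combination at 135 ± 2.48 and nutlin at 147 ± 0.524 CPM. *MDM4* was most like *HECW2* (0.949), which encodes a HECT ubiquitin ligase, *ZFYVE9* (0.936) and *PDE4D* (0.935), and least like the proteasome subunit gene *PSMB3* (−0.951). Within TPC1 *HECW2* was highest in the combination, with 10.7 ± 2.63 CPM against 3.88 ± 0.603 CPM in nutlin (SD, n = 2). In K1 it stood higher throughout and also peaked in the combination, with 25 ± 0.031 CPM in DMSO, 32.5 ± 0.778 in nutlin, 21.4 ± 1.64 in GSK2830371 and 38.7 ± 1.03 in the combination. Among the members themselves the correlation was 0.95 between *MDM2* and *PPM1D*, 0.88 between *TP73* and *MDM2*, and 0.42 between *MDM4* and *PPM1D*.

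Lists of related genes were counted beside the share of all genes called under nutlin, 35.5% in TPC1 and 9.27% in K1. Of 22 further genes for p53 ubiquitin ligases and repressors, all tested, nutlin raised 4 and lowered 3 in TPC1 (31.8%, against 35.5% of all genes, median difference −0.04 against 0) and raised 2 and lowered 1 in K1 (13.6%, against 9.27%, median −0.07 against 0). The increases included *PHLDA3*, with 2.01 ± 0.0791 in TPC1 and 1.08 ± 0.0524 in K1. It is counted in this list although its product inhibits AKT and is not itself a repressor of p53. Cyclin G1 (*CCNG1*), a p53 target that acts with the phosphatase PP2A on MDM2, rose by 1.83 ± 0.132 in TPC1 and 0.93 ± 0.0712 in K1. The mitotic kinase gene *AURKA* fell by 3.27 on the log2 scale in TPC1 and by 0.82 in K1, and *SETD8*, a histone and p53 methyltransferase gene, fell by 0.99 in TPC1. For the combination against nutlin, 1 gene was called lower in TPC1 (4.55%, against 12.1% of all genes) and 2 in K1 (9.09%, against 2.68%). *AURKA* was called in both lines, at −0.66 ± 0.11 in TPC1 and −1.22 ± 0.119 in K1. *PPP1R13L*, which encodes the p53 inhibitor iASPP, was called in K1 at −0.6 ± 0.0863. In TPC1 *PPP1R13L* gave −0.55 ± 0.0814 (adjusted p = 0.0016, edgeR), past the p threshold but just under 1.5-fold. GSK2830371 alone gave 0 calls among these 22 in edgeR in either line, where 1.4% of all genes were called in TPC1 and 2.23% in K1. Of the 22, 5 in TPC1 and 8 in K1 had an unadjusted p under 0.05, and DESeq2 called 0 and 1.

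Among 20 genes for binders and stabilizers of MDM2 and MDM4, nutlin raised 3 and lowered 6 of the 20 tested in TPC1 (45%, against 35.5% of all genes, median −0.06) and raised 2 and lowered 1 of the 19 tested in K1 (15.8%, against 9.27%, median −0.02). *RPS27L*, a p53-responsive ribosomal protein gene whose product binds MDM2, rose by 2.09 ± 0.0836 in TPC1 and 0.85 ± 0.0513 in K1. *TSPYL2* rose by 0.86 ± 0.0946 and 0.69 ± 0.0676. *MTBP*, named for its binding to MDM2, fell by 2.3 in TPC1 and fell by 1.39 in K1, and the tumor suppressor gene *RASSF1* fell by 1.34 in TPC1. The combination against nutlin gave 0 calls of this group in both lines by edgeR and by DESeq2, with 8 genes in TPC1 and 4 in K1 at an unadjusted p under 0.05. Of all genes, 12.1% were called in TPC1 and 2.68% in K1. GSK2830371 against DMSO also gave 0 in edgeR (1.4% and 2.23% of all genes were called), with 2 and 7 genes at an unadjusted p under 0.05, DESeq2 calling 1 in K1.

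Of 16 genes for ligases and cofactors of p63 and p73, all tested, nutlin raised 2 and lowered 2 in TPC1 (25%, against 35.5% of all genes, median 0.15) and gave 0 calls in K1 by edgeR or DESeq2 (against 9.27% of all genes, median 0.02, 7 genes at an unadjusted p under 0.05). *WWP1*, a HECT ligase gene, rose by 0.97 ± 0.0836 and *YAP1*, a transcriptional coactivator of p73, by 0.86 ± 0.108 in TPC1. *FBXO45*, the F-box gene of a p73 ligase, fell by 0.75 and *PPP1R13B* (ASPP1) by 0.61. In K1 *FBXO45* at −0.39 ± 0.0579 and *PPP1R13B* at −0.37 ± 0.0756 passed the p threshold but not 1.5-fold (adjusted p = 0.00016 and 0.0021, edgeR). So did *WWP1* at 0.28 ± 0.0693 (adjusted p = 0.008, edgeR), while *YAP1* at 0.03 ± 0.053 passed neither limit. The relatives of *PPM1D* were 18 genes for metal-dependent phosphatases and partners. Nutlin raised 3 and lowered 4 of the 17 tested in TPC1 (41.2%, against 35.5% of all genes, median 0.12) and gave 0 calls among the 18 tested in K1 by edgeR or DESeq2 (against 9.27% of all genes, median −0.02, 6 genes at an unadjusted p under 0.05). *PPM1A* rose by 1.32 ± 0.0817 and *PPM1L* by 1.41 ± 0.277 in TPC1, while *PHLPP1*, an AKT phosphatase gene, fell by 1.23 and *PPM1G* by 1.19. In K1 *PHLPP1* at −0.52 ± 0.0808 and *PPM1G* at −0.41 ± 0.0501 passed the p threshold but not 1.5-fold (adjusted p = 0.00024 and 3.1e-05, edgeR). *PPM1A* at 0.07 ± 0.0669 and *PPM1L* at 0.11 ± 0.125 passed neither limit there. For the combination against nutlin in TPC1, 23.5% of the tested phosphatase genes were called, against 12.1% of all genes. Of these, 2 were higher (*PPM1L* at 1.07 ± 0.238, *PPM1K* at 0.59 ± 0.146) and 2 lower (*PHLPP1* at −0.72 ± 0.0929, *PDP1* at −0.67 ± 0.108). In K1 edgeR and DESeq2 called 0 of the list (2.68% of all genes were called), 2 having an unadjusted p under 0.05.

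Basal epithelial genes that go with p63 were measured beside the near absence of *TP63*. Of 14, 10 passed the filter in each line, and nutlin raised 5 in TPC1 (50%, against 35.5% of all genes, median 0.57) and 1 in K1 (10%, against 9.27%, median 0.15), lowering 0. Among thyroid markers, nutlin raised 2 of 4 tested in TPC1 (median 1.87) and 2 of 5 in K1 (median 0.94). Their part in these counts was not tested. The better expressed *PAX8* and *FOXE1* stayed within 292 to 459 and 22.1 to 27.3 CPM over the TPC1 libraries. In K1 they stayed within 750 to 847 and 28.9 to 38.5 CPM. *TG* had 0.233 CPM and *SLC5A5* 0 CPM in TPC1 DMSO. *PERP*, also a direct p53 target, rose by 1.25 ± 0.0743 and the Notch ligand gene *JAG2* by 1.12 ± 0.0925 in TPC1. In the combination against nutlin 10% of the tested basal genes were called in each line (against 12.1% of all genes in TPC1 and 2.68% in K1). The keratin gene *KRT15* was called lower in TPC1 (−0.97 ± 0.0999) and the hemidesmosome collagen gene *COL17A1* in K1 (−1.03 ± 0.13). In the other line both were also lower, past the p threshold but under 1.5-fold. *KRT15* gave −0.43 ± 0.128 in K1 and *COL17A1* −0.44 ± 0.0909 in TPC1 (adjusted p = 0.042 and 0.0079, edgeR). The K1 increase was *KRT17*, named after its values were seen, at 0 counts in both DMSO libraries and at most at 0.248 CPM there. DESeq2 called 0 genes of this list in K1. *KRT17* is also among the 5 raised in TPC1, where it did not exceed 0.591 CPM in any library. All calls of listed genes use the same edgeR test and threshold as the members.

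**Figure D4:**
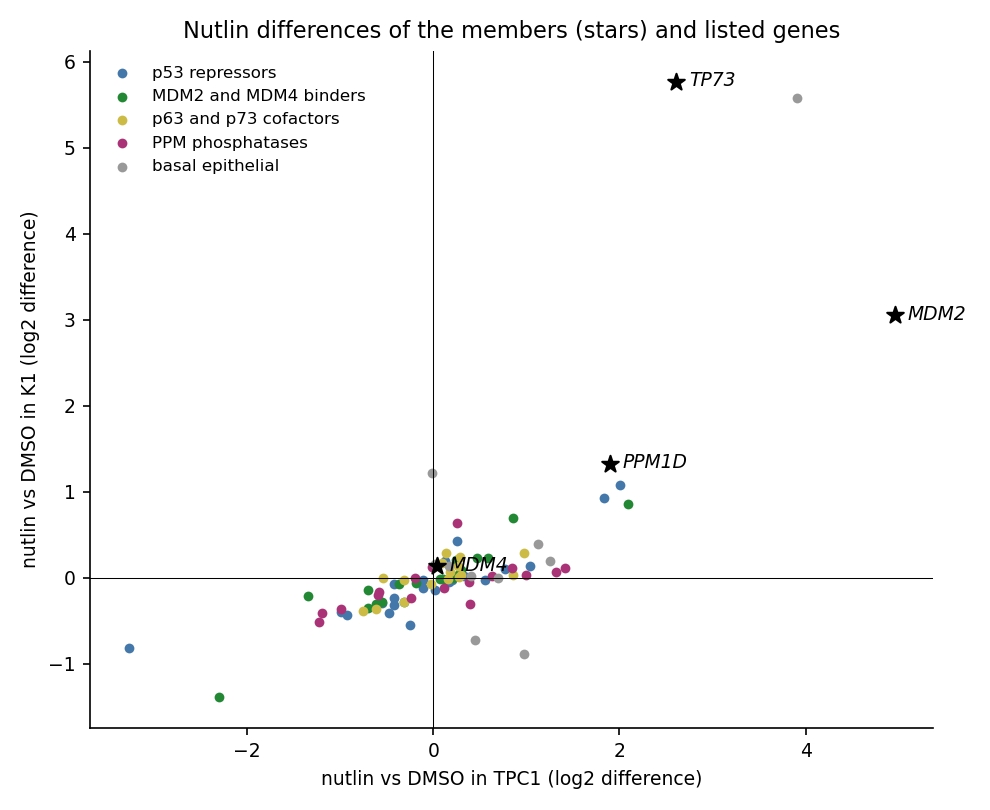
Log2 difference of nutlin against DMSO in TPC1 (x axis) and in K1 (y axis) for the 4 tested members (stars, named) and for the genes of the 5 lists tested in both lines (dots, colored by list). *MDM2*, *TP73* and *PPM1D* lie to the upper right with *MDM4* near 0 in both lines, and the dot beside *TP73* is the weakly expressed *KRT17*, whose fitted difference in K1 is against DMSO libraries at 0 counts.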

How the data were processed

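Stranded polyadenylated RNA of TPC1 and K1 was sequenced in 16 libraries, 2 per line and treatment. According to the study's methods and the submitters' processing notes, the authors aligned reads to GRCh37 (hg19) with TopHat2 2.0.13, discarded alignments with poor mapping scores and used HTSeq 0.6.1 to count by gene, so the deposited values are raw counts per gene symbol without normalization. Reads placed equally well in several loci score poorly and were largely lost, which can lower values of genes with near-identical copies. All 16 columns were used. TPC1 columns are numbered 1 and 3 where the labels number the replicates 1 and 2, so those numbered 3 were assigned to their treatment only. Depth was 30789887 to 76648552 counts per TPC1 library and 28888686 to 37161241 per K1 library, and a level near 3 counts cannot be told from 0.

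Counts were scaled by TMM and fitted with edgeR 4.0.16 (glmQLFit, glmQLFTest) in R 4.3.3, the 8 libraries of a line together and all 16 for differences between lines, keeping genes above 0.1 CPM in at least 2 libraries. SE is the log2 difference divided by the square root of F, and 95% intervals use the test's degrees of freedom. P values were adjusted by Benjamini-Hochberg over all genes of a fit. Gene models and exon lengths are from GENCODE v44lift37, windows at start sites from RefSeq.

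Besides the 5 members, genes were named by rule: the 3 genes most like each member and the least like, and of each list the 2 largest called increases and decreases at 1 CPM or more in nutlin against DMSO and in combination against nutlin. The cell type markers and the basal genes *KRT5*, *KRT14*, *ITGA6* and *KRT17* were named outside this rule. The members and lists were chosen with earlier results of these data known. Same-numbered TPC1 libraries deviated together (correlations of 0.452 to 0.623 between treatments over 12303 genes), so a fit with the replicate number as a block is given where it changes a call. Alternatives were DESeq2 1.42.0, other scalings and filters, only the compared groups, a GC and length correction, the block, and leaving out each library.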

Additional observations from a re-analysis of the deposited data

Results flagged for a closer look

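Of the responses, 4 differed between the lines by the test of the difference itself (edgeR's quasi-likelihood fit of all 16 libraries, adjusted by Benjamini-Hochberg). For nutlin against DMSO, K1 minus TPC1 was 3.16 ± 0.635 for *TP73* (adjusted p = 0.0011, edgeR), −1.95 ± 0.116 for *MDM2* (adjusted p = 4e-09, edgeR) and −0.61 ± 0.136 for *PPM1D* (adjusted p = 0.0025, edgeR). For the combination against nutlin it was −0.66 ± 0.15 for *MDM4* (adjusted p = 0.012, edgeR). Growth medium differs with the line, and its part in these differences cannot be told apart from that of the line.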

How the results depend on the processing

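Of the recomputed log2 differences of members, 1033 kept direction and side of the threshold, 22 changed side and 25 changed sign. None of the sign changes involved a called difference. With the GC and length trend removed (values for 87.1% of tested genes in TPC1 and 86.8% in K1), *MDM4* gave −0.06 for nutlin against DMSO in TPC1 and −0.01 for the combination against nutlin in K1. With library size alone, the TPC1 interaction of *MDM2* was −0.01, and the difference between lines in the combination against nutlin was 0.01 for *TP73* and 0.01 for *PPM1D*. That scaling shifted the median of all genes to −0.11 for the combination against GSK2830371 in TPC1. With the replicate block, *TP73* gave −0.23 between the untreated lines and 0 between the lines for the combination against nutlin.

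Counts of called members moved as follows. The TPC1 combination against nutlin gave 2 with the replicate block. The TPC1 interaction gave 1 without a filter, 1 with DESeq2, 1 with the replicate block and 1 with the GC and length trend removed, each time *TP73*. The GSK2830371 effect between lines gave 1 with DESeq2 and 1 with the replicate block, again *TP73*. The block changed no other call of a member. In K1 the replicate numbers gave correlations of −0.32 to 0.333 over 12546 genes and so pair nothing, and the block there left every count of members as it was. Over all genes, the TPC1 calls for GSK2830371 against DMSO went from 1.4% to 3.14% with the block and from 1.4% to 2.14% with the GC and length correction, and the interaction from 6.32% to 10.3% with the block. In K1 that correction took GSK2830371 from 2.23% to 0.824% and the interaction from 2.44% to 0.491%. The cause was not tested.

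Leaving out one library at a time gave these ranges of called members: 0 to 1 for GSK2830371 and for the interaction in TPC1, 1 to 2 for the combination against nutlin in K1, and 0 to 1 for the untreated lines, for the GSK2830371 effect between lines and for the combination against nutlin between lines. In TPC1 the same gave −0.13 to 0.24 for *MDM4* under nutlin and, for the interaction, −0.04 to 0.15 for *MDM2* and 0.24 to 0.62 for *MDM4*, which was the member called without DMSO replicate 3. In K1 it gave −0.06 to 0.1 for *MDM4* in the combination against nutlin, and for the interaction −0.83 to 0.07 for *TP73* and −0.19 to 0.01 for *PPM1D*. Between lines it gave −0.3 to 0.6 for untreated *TP73*, −0.13 to 0.21 for *MDM4* under nutlin, and for the combination against nutlin −0.44 to 0.33 for *TP73* and −0.15 to 0.06 for *PPM1D*. A lone library left in a group was assumed to vary like the other groups.

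With 2 libraries a group, p values rest on the spread pooled over a line. *TP73* outside nutlin has 1 to 14 counts per library, so its changes with GSK2830371 are limited by depth, and *TP63* could not be tested. *MDM2*, *MDM4* and *PPM1D* have at least 299 counts in every library.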
